A study of Homo sapiens with 6 samples.

Results

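The genes described here encode the proteins that start, lengthen, cap and take apart actin filaments. They are 45 of the 21293 genes listed for H2087-LCC, and they were taken by name from 10 classes: the Arp2/3 complex, its WASP/WAVE activators, formins, WH2 nucleators, the cofilin family, the kinases and phosphatases that act on cofilin, actin monomer binding proteins, capping protein, the Ena/VASP proteins and cortactin. The rule uses gene names and no measured value. Of the 45 genes, 43 had a mean normalized read count of at least 10 and were tested. The other 2 were the formin DAAM2, listed at 5 to 13, and the WH2 nucleator COBL, listed at 0 to 3.

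H2087-LCC is a latency competent derivative of a human lung adenocarcinoma cell line, selected in mice for its ability to persist as dormant disseminated cells. The groups are 3 days with SB505124 (SB), which blocks the kinase of the type I TGFβ receptor, 3 days with TGFβ and 7 days with TGFβ, and polyadenylated RNA was sequenced from 2 libraries per group. The model is a single selected cell population, and the study describes the libraries of a group as technical replicates, so p-values here measure only the spread between such libraries. SB was not applied for 7 days in these libraries. The effects of 7 days of TGFβ and 4 more days in culture therefore cannot be told apart when TGFβ at 7 days is set against SB at 3 days. The same holds when TGFβ at 7 days is set against TGFβ at 3 days. In bulk RNA, fewer cells that use a gene and less RNA of that gene per cell cannot be told apart.

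Actin filaments grow by adding monomers at their barbed end. The Arp2/3 complex, once switched on by WASP or WAVE proteins, starts a new filament as a branch on the side of an old one, whereas formins start unbranched filaments and stay on the growing end. Profilin and thymosin hold the monomer pool, capping protein stops growth, Ena/VASP proteins keep ends growing, and cofilin severs old filaments until LIM kinases switch it off by phosphorylation, which Slingshot phosphatases undo. TGFβ is known for remodelling this machinery in epithelial cells that lose their junctions.

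The libraries held 34306283 to 36340734 normalized read counts each, and the steps between low values put their depth at about 32000000 to 40000000 assigned reads. SMAD7, SKIL and FN1, known TGFβ target genes, were higher in each of the 4 TGFβ libraries than in both SB libraries, and CDH1, the epithelial cadherin, was lower. The 8 lung epithelial markers summed to 89139 to 115549 normalized read counts per library, 4 leukocyte markers to 7 to 22, 4 fibroblast markers to 210 to 595 and 4 endothelial markers to 93 to 294. KRT8 and KRT18 made up most of the epithelial sum, which hides single genes. EPCAM, KRT18, NKX2-1 and NAPSA, like CDH1, were lower in every TGFβ library than in SB, KRT7 was higher, and KRT8 and KRT19 overlapped. COL1A1, at 196 to 581 and highest at 7 days, made up most of the fibroblast sum. The 2 libraries of a group differed along the GC content of the genes, with a correlation across 13021 genes of -0.17 in SB, -0.53 in TGFβ at 3 days and 0.48 in TGFβ at 7 days. A correction for GC content and length was therefore added, chosen after seeing the data. Its values are given where they changed a call or moved a called value by over 1.5 times. This covers member changes called in the main fit, and all comparisons of the 21 members called with a change of at least 0.5. With that correction 24 of the tested members, in place of 15, were called at 3 days against SB. At 7 days against SB 29 were called in place of 25, and between the times 21 in place of 16. The corrected fit ran on the 13021 genes with a GC value, and the share of all genes called in it is not given. These 3 counts therefore cannot be set against the shares of all genes in the main fit. Not every member that gained a call is named, and members said to have passed no test were judged without the correction.

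The actin genes moved in both directions, and their share of calls lay near that of all genes. At 3 days of TGFβ, 11 of the 43 tested genes rose and 4 fell against SB at a Benjamini-Hochberg adjusted p under 0.05 in limma. That is 34.9% of them, where 29% of all 14395 genes tested were called (14.9% higher and 14% lower). At 7 days, 16 rose and 9 fell against SB, or 58.1% where 54.5% of all genes were called (27.7% higher and 26.9% lower). Between 3 and 7 days of TGFβ, 8 rose and 8 fell, or 37.2% against 33.2% (17% and 16.2%). The 2 comparisons with SB share their control libraries. With 2 libraries against 2, groups without overlap were common among all genes tested. Against SB at 3 days 4359 of the 14395 lay wholly above and 4739 wholly below, and 23 and 10 of the 43 members did. At 7 days these were 5606 and 5550 of all genes and 22 and 14 members, and between the times 5214 and 4740 of all genes and 15 and 18 members. A lack of overlap, given below for single genes, is a description and adds no support to a call. The median log2 fold change of the tested members was 0.11 at 3 days and 0.11 at 7 days against SB, and that of all genes was -0.02 and -0.00081. A log2 fold change over 1 in size was reached by 3 of the 43 at 3 days, or 6.98% where 8.8% of all genes did so. At 7 days 4 of the 43 reached it, or 9.3% where 16.7% of all genes did so. Of the 43 genes, 21 passed the test with a change of at least 0.5 in at least 1 comparison, 9 passed it with smaller changes, and 13 passed it in none (ACTR2, ACTR3, ARPC4, WASL, WASF1, WASF2, DIAPH2, INF2, SPIRE2, DSTN, CAPZA1, CAPZA2 and CTTN). The estimated log2 fold changes of those 13 lay between -0.54 and 0.35 over the 3 comparisons.

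**Figure D1:**
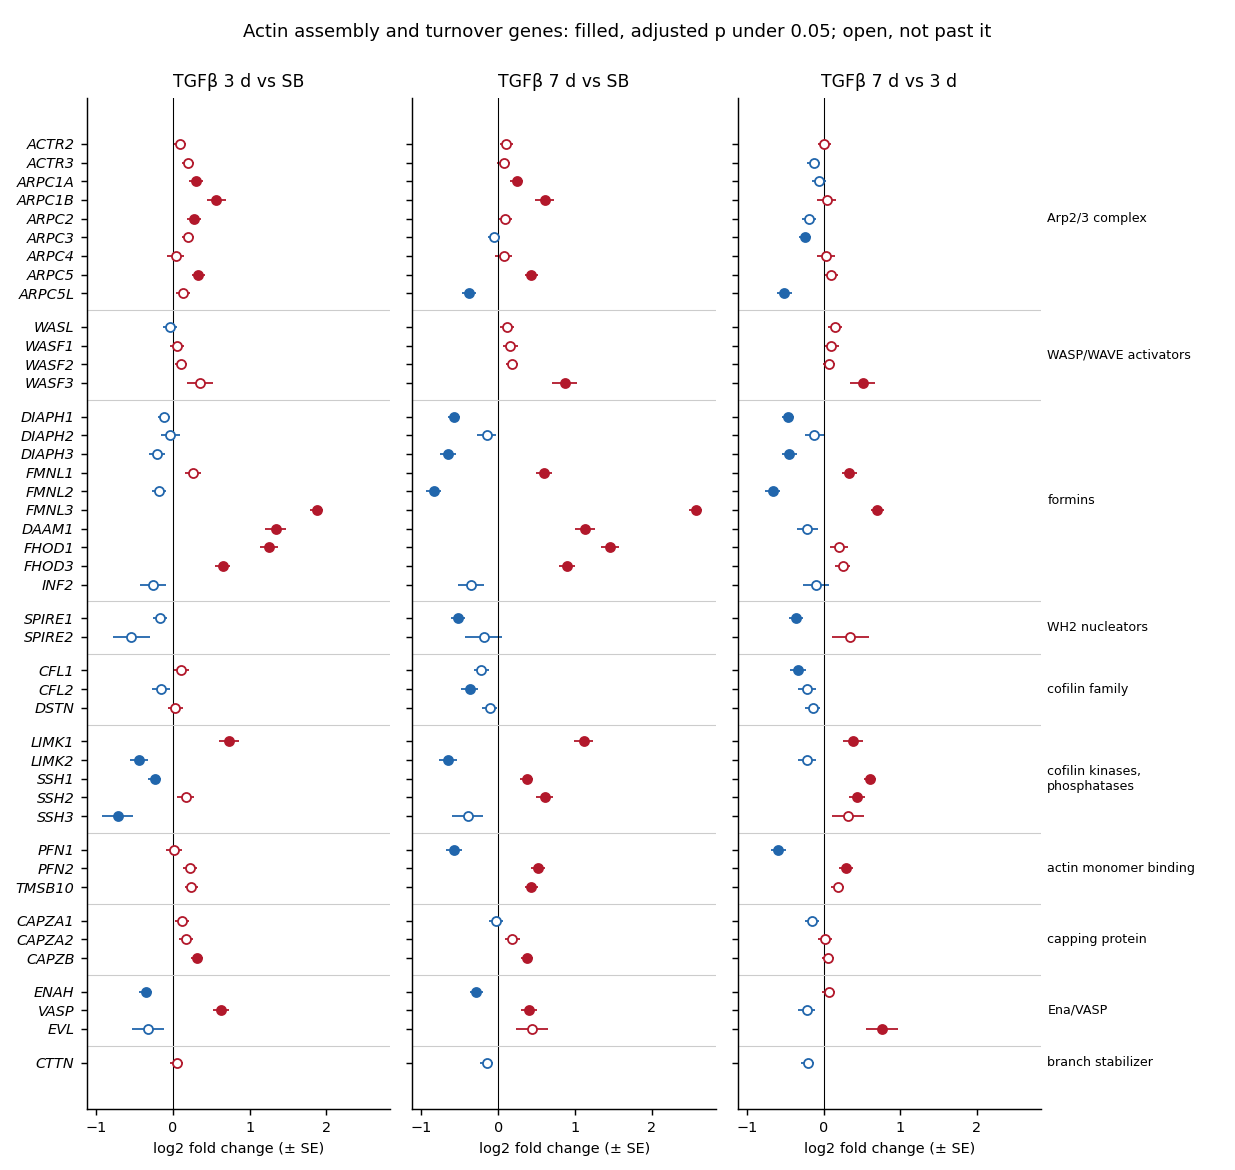
Log2 fold changes (x axis, points, with the standard error as bars) of the 43 tested genes, one row per gene grouped by role, in the 3 comparisons of 2 against 2 libraries; red is higher and blue lower in the first-named group, and filled points passed an adjusted p of 0.05. The formins hold the widest spread, from FMNL3 at 2.57 to FMNL2 at -0.84 for TGFβ at 7 days against SB.

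Formins, the nucleators of unbranched filaments, moved apart from each other under TGFβ. At 3 days 4 of the 10 tested formins rose (FMNL3, DAAM1, FHOD1 and FHOD3) and none passed the test lower. That is 40% called, where 29% of all genes tested were called. With the GC and length correction FMNL1 was also called higher at 3 days (0.26), and DIAPH3 (-0.24) and FMNL2 (-0.22) were called lower. At 7 days 5 rose and 3 fell against SB: FMNL1 joined the 4, and DIAPH1, DIAPH3 and FMNL2 fell. That is 80% called, where 54.5% of all genes tested were called. The 3 genes with a log2 fold change over 1 at 3 days were all formins, as were 3 of the 4 at 7 days.

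The upstream sequences of these 8 formins are printed so that the genes that rose and those that fell can be compared letter by letter. They are the 250 bases before a RefSeq start of each gene on GRCh38.p14 (the first listed where there are more), written 5′ to 3′ along the gene's own strand. Capitals mark CAGAC or its reverse complement GTCTG, the half-site that SMAD proteins, the transcription factors of the TGFβ pathway, are known to bind. At 7 days FMNL3, DAAM1, FHOD1, FHOD3 and FMNL1 rose, whereas FMNL2, DIAPH1 and DIAPH3 fell.
FMNL3: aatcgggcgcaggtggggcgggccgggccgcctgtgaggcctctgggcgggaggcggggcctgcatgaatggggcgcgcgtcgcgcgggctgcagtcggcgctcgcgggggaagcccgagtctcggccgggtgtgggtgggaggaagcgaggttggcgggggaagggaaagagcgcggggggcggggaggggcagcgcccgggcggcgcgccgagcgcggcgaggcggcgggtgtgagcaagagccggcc
DAAM1: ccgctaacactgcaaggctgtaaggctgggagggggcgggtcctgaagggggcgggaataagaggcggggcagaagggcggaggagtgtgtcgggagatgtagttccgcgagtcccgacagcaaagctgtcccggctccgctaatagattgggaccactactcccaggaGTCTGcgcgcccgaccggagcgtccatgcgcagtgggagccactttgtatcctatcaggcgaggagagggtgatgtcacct
FHOD1: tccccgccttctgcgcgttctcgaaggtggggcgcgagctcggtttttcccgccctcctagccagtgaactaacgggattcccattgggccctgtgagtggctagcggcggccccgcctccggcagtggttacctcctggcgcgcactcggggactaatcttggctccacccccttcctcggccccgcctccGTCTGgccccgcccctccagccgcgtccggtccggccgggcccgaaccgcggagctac
FHOD3: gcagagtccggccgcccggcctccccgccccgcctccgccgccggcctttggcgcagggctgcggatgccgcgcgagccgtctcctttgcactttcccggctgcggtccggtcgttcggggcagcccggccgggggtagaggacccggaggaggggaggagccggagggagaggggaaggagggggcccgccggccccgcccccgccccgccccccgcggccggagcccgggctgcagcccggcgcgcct
FMNL1: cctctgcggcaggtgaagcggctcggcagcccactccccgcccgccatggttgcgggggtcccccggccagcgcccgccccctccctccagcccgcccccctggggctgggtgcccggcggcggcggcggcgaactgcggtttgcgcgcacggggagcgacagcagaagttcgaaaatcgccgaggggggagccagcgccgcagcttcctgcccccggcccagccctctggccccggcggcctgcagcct
FMNL2: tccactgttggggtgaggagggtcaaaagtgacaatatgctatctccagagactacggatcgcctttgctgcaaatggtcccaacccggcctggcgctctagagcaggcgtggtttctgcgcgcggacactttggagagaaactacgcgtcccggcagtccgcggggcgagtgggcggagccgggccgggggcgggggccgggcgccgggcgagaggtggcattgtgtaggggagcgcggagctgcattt
DIAPH1: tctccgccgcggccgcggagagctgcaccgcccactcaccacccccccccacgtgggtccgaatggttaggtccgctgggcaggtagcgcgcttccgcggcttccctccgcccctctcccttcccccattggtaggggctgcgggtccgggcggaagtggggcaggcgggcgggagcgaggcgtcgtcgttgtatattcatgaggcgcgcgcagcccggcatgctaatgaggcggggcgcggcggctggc
DIAPH3: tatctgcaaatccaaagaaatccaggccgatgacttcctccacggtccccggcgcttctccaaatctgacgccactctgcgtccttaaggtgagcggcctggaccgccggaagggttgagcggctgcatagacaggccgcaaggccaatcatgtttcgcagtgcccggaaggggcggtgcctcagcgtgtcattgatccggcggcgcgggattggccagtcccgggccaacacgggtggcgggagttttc
FMNL3 lies at chr12:49707406-49707655 (minus strand), DAAM1 at chr14:59188417-59188666 (plus), FHOD1 at chr16:67247482-67247731 (minus), FHOD3 at chr18:36297463-36297712 (plus), FMNL1 at chr17:45221635-45221884 (plus), FMNL2 at chr2:152334924-152335173 (plus), DIAPH1 at chr5:141619001-141619250 (minus) and DIAPH3 at chr13:60163929-60164178 (minus). The half-site was present 81 bases before the start of DAAM1 (position -81) and 58 bases before that of FHOD1 (position -58), and these letters were not found in the other windows printed. DAAM1 has a second listed start, whose window at chr14:59263191-59263440 holds the half-site at position -68. On either strand it occurred in 13 of 57 windows of the 40 genes with an entry (22.8%) and in 38% of all 35116 windows of the same length. The 12 genes with it were ARPC2, ARPC4, DAAM1, DAAM2, DSTN, FHOD1, INF2, LIMK1, LIMK2, PFN1, SPIRE1 and SSH3. Against SB at 7 days DAAM1, FHOD1 and LIMK1 rose and LIMK2, PFN1 and SPIRE1 fell. The others were not called, or in the case of DAAM2 not tested. The CArG box, bound by serum response factor, was found in 0 of the 57 windows and in 1.16% of all. TGANTCA, an AP-1 motif, was found in 1 of the 57 (1.75%, INF2) and in 6.57% of all, and GGAATG, a TEAD motif, in 4 (7.02%; DIAPH3, INF2, PFN1 and SPIRE1) and in 11.9% of all. A match is a description of letters and not of binding.

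FMNL3, a formin-like protein that bundles and lengthens filaments at the cell edge, had 1045 and 1040 normalized read counts in the SB libraries, 3743 and 3901 at 3 days of TGFβ and 6155 and 6250 at 7 days. The 3 groups did not overlap, and the libraries of each group lay close together. The log2 fold change was 1.87 ± 0.08 (SE) at 3 days (3.67-fold by the ratio of means, adjusted p = 1.86e-08) and 2.57 ± 0.08 at 7 days (5.95-fold, adjusted p = 5.62e-10), and the further rise between 3 and 7 days was 0.70 ± 0.08 (adjusted p = 0.000149). Corrected for GC content and length, the rise between 3 and 7 days was 0.41 and the call held. FMNL3 spans chr12:50030282-50101948 on the minus strand of GRCh37 and shares 2643 exon bases (19.7% of its exons) with PRPF40B on the other strand. Because the kit did not keep strand, reads there could belong to either gene. PRPF40B was listed at 334 to 605 over the 6 libraries, below FMNL3 in every one.

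The close relative FMNL2, known for its part in lamellipodia and filopodia, went the other way. Its values were 3540 and 3650 in SB, 3348 and 3009 at 3 days and 1893 and 2126 at 7 days, with no overlap between groups. The change at 3 days did not pass the test (-0.18 ± 0.10, adjusted p = 0.186; with the GC and length correction it did, at -0.22, adjusted p = 0.0272). At 7 days FMNL2 was lower than in SB by -0.84 ± 0.10 (adjusted p = 1.95e-05) and lower than at 3 days by -0.66 ± 0.10 (adjusted p = 0.0005). FMNL1, the member of the family best known from blood cells, had 2163 and 2252 in SB, 2456 and 2847 at 3 days and 3559 and 3140 at 7 days. At 3 days its estimate of 0.26 (adjusted p = 0.0777) passed the test only with the GC and length correction among the alternatives run (0.26, adjusted p = 0.0251). It rose at 7 days by 0.60 ± 0.10 against SB (adjusted p = 0.000415), or by 0.37 with the GC and length correction. Its step from 3 to 7 days, 0.34 ± 0.10 (adjusted p = 0.0252), lost the call with that correction (0.11) and without replicate 1 of either TGFβ group (0.23 and 0.25).

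Counted per kilobase of exon, the makeup of the FMNL family therefore turned over. FMNL2 held 59.6% ± 0.0043 of the family's summed level in SB (mean ± SD, n = 2), 43.2% ± 3.58 at 3 days and 25.2% ± 2.26 at 7 days. FMNL3 went from 8.47% ± 0.21 to 25.4% ± 0.55 and 38.2% ± 0.70. FMNL1 held 31.9% ± 0.22, 31.4% ± 3.03 and 36.6% ± 2.96. FMNL2 was thus the most abundant member in both SB libraries and the least abundant in both 7-day libraries. With the longest transcript in place of all exons as the length, the 7-day shift of FMNL3 was 25.1 percentage points in place of 29.7 and that of FMNL2 -31.2 in place of -34.4. Which of FMNL1 and FMNL3 was higher at 7 days depended on the length: by all exons their shares lay within their spread of each other, and by the longest transcript FMNL1 stood at 724 and 638 per kilobase and FMNL3 at 488 and 495.

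DAAM1, a formin of the Wnt planar polarity pathway, had 525 and 414 in SB, 1260 and 1108 at 3 days and 973 and 1074 at 7 days. Every TGFβ library was above both SB libraries, and the 7-day values were below the 3-day ones. Against SB, DAAM1 rose by 1.34 ± 0.13 after 3 days (adjusted p = 1.55e-05) and by 1.13 ± 0.13 after 7 (adjusted p = 2.67e-05), and the step between the times did not pass the test (-0.21, adjusted p = 0.255). DAAM1 is one of the 2 genes with a SMAD half-site among the windows printed above, and one of 12 among the 40 genes with an entry.

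FHOD1 and FHOD3 are formins known from stress fibres and, for FHOD3, from heart muscle sarcomeres. FHOD1 had 2531 and 2755 in SB, 5647 and 6991 at 3 days and 7953 and 6585 at 7 days, and FHOD3 had 1283 and 1119, 1891 and 1866, and 2258 and 2203. Both were higher in each TGFβ library than in either SB library. FHOD1 rose by 1.25 ± 0.12 at 3 days (adjusted p = 9.85e-06) and by 1.45 ± 0.12 at 7 days (adjusted p = 1.21e-06). FHOD3 rose by 0.65 ± 0.10 (adjusted p = 0.000413) and 0.90 ± 0.10 (adjusted p = 1.5e-05). Between 3 and 7 days neither passed the test, at 0.20 (adjusted p = 0.209) for FHOD1, whose libraries overlapped, and 0.25 (adjusted p = 0.0738) for FHOD3. With the GC and length correction these steps were 0.018 and 0.072, and FHOD3's step was called without either SB library (adjusted p = 0.036 and 0.035). FHOD1 shares 571 exon bases (10.9%) with SLC9A5 and FHOD3 741 (9.1%) with TPGS2, each on the other strand.

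DIAPH1 and DIAPH3 are diaphanous formins, and both fell at 7 days. DIAPH1 had 17713 and 17958 in SB, 16885 and 16088 at 3 days and 11720 and 12181 at 7 days, and DIAPH3 had 2016 and 1855, 1720 and 1631, and 1164 and 1303. The 7-day libraries were the lowest for both genes, and the 3-day libraries lay between. At 3 days the changes of -0.11 (adjusted p = 0.291) and -0.21 (adjusted p = 0.149) did not pass the test, although that of DIAPH3 did with the GC and length correction (-0.24, adjusted p = 0.0214). At 7 days DIAPH1 was at -0.58 ± 0.08 against SB (adjusted p = 5.9e-05) and DIAPH3 at -0.65 ± 0.10 (adjusted p = 0.000207). Against 3 days they were at -0.46 (adjusted p = 0.00108) and -0.44 (adjusted p = 0.00648), and the call of DIAPH3 was lost without replicate 1 of either TGFβ group. DIAPH2, with 587 to 719 in the 6 libraries, and INF2, a formin that also severs filaments, with 1909 to 3055, passed no test.

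**Figure D2:**
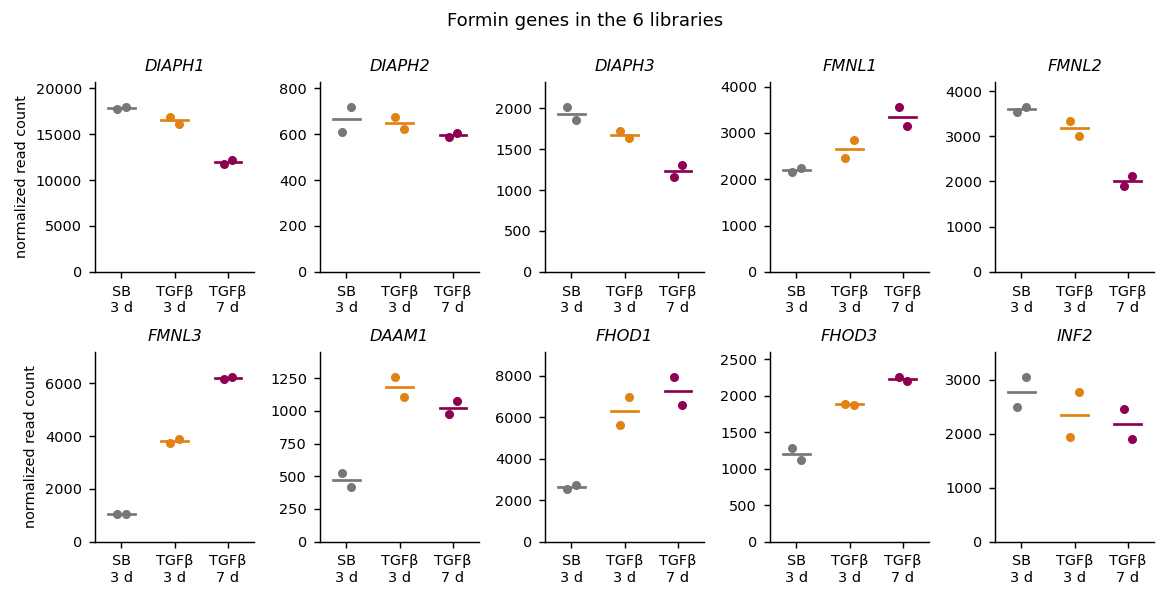
Normalized read counts (y axis, from 0 on a scale of its own for each gene) of the 10 tested formins in the 6 libraries; points are libraries, bars the mean of the 2 libraries of a group. FMNL3, DAAM1, FHOD1 and FHOD3 sit higher in each TGFβ library than in SB, and DIAPH1, DIAPH3 and FMNL2 are lowest at 7 days.

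DIAPH1 remained the formin with the highest level per kilobase in every library, by a smaller margin. It held 53% ± 0.35 of the summed formin level in SB, 41.7% ± 2.45 at 3 days and 32.6% ± 1.94 at 7 days, while FHOD1 went from 11.1% ± 0.48 to 22.4% ± 2.83 and 27.8% ± 2.81. In the 7-day libraries DIAPH1 and FHOD1 stood at 31.2% and 29.8% in replicate 1, so that these neighbours lay within their spread. The summed formin level per kilobase was 4520 and 4625 in SB, 5284 and 5471 at 3 days and 5099 and 4871 at 7 days. The sum thus changed less than its makeup.

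SPIRE1, which starts filaments by lining up monomers on WH2 domains, had 2128 and 2152 in SB, 1917 and 1905 at 3 days and 1443 and 1544 at 7 days. The groups did not overlap and the 7-day libraries were lowest. SPIRE1 fell at 7 days by 0.52 on the log2 scale against SB (SE 0.09, adjusted p = 0.000485). Its change at 3 days was -0.16 (adjusted p = 0.204), or -0.19 and called with the GC and length correction (adjusted p = 0.0319), and its fall of 0.36 between 3 and 7 days (adjusted p = 0.0114) lost the call on leaving out any 1 of the 4 TGFβ libraries. SPIRE2 was low, at 91 to 186, and passed no test.

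Most genes of the Arp2/3 complex moved little. At 3 days 4 of 9 rose (ARPC1A, ARPC1B, ARPC2 and ARPC5) and none fell, and at 7 days 3 rose (ARPC1A, ARPC1B and ARPC5) and ARPC5L fell. At each time 44.4% were called, where 29% (3 days) and 54.5% (7 days) of all genes tested were. ACTR2 and ACTR3, the actin-related subunits that form the first 2 units of a new branch, had 30007 to 33793 and 11139 to 13766 over the 6 libraries and passed no test. The per-kilobase level of the complex summed to 19804 and 18720 in SB, 22555 and 21536 at 3 days and 20722 and 21125 at 7 days.

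ARPC5 and ARPC5L are alternative forms of the smallest subunit, and they parted at 7 days. ARPC5 had 13085 and 11589 in SB, 15942 and 15087 at 3 days and 16191 and 17078 at 7 days. ARPC5L had 2670 and 2380, 2815 and 2703, and 1980 and 1898. All 4 TGFβ libraries were above SB for ARPC5, and the 7-day libraries were the lowest for ARPC5L. ARPC5 rose by 0.33 ± 0.09 at 3 days (adjusted p = 0.0122) and by 0.43 ± 0.09 at 7 days (adjusted p = 0.00111, or a change of 0.28 with the GC and length correction). The 3-day call was lost without SB replicate 2 (0.25) and without 3-day replicate 1 (0.29). ARPC5L was not called at 3 days (0.13, adjusted p = 0.328) and was lower at 7 days by -0.38 ± 0.09 against SB (adjusted p = 0.00469) and by -0.51 ± 0.09 against 3 days (adjusted p = 0.00202). Without 7-day replicate 2 the call against SB was lost (-0.35). Per kilobase, ARPC5L held 37.7% ± 0.11 of the pair in SB, 34.4% ± 0.23 at 3 days and 25.6% ± 1.29 at 7 days.

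ARPC1B, one of 2 alternative forms of another subunit, had 2497 and 2447 in SB, 3236 and 4127 at 3 days and 4137 and 3429 at 7 days. The TGFβ libraries were all above SB and the 2 TGFβ groups overlapped. ARPC1B rose by 0.56 ± 0.12 at 3 days (adjusted p = 0.00486) and by 0.61 ± 0.12 at 7 days (adjusted p = 0.00135). The 3-day call was lost with no filter on low values and with no trend. Its alternative ARPC1A had 6831 and 5895 in SB, 7646 and 7980 at 3 days and 7603 and 7389 at 7 days. It rose by 0.30 (adjusted p = 0.0257) and 0.24 (adjusted p = 0.0384), and each of these calls was lost on leaving out SB replicate 2 or any of the TGFβ libraries. In the GENCODE annotation ARPC1A and ARPC1B share exons with a common readthrough gene, over 58.6% and 23.1% of their exon bases, and the annotation behind the deposited counts is not given in the sources used here. ARPC2 rose at 3 days and not at 7 (0.28, adjusted p = 0.0355), and lost this call without SB replicate 2 (0.16) and on leaving out any 1 TGFβ library, and ARPC3 fell by 0.24 on the log2 scale between 3 and 7 days (adjusted p = 0.033), a call lost on leaving out any TGFβ library and with the GC and length correction (-0.09).

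Among the 4 tested activators of the complex, WASF3 passed the test and WASL, WASF1 and WASF2 did not. At 3 days none of the 4 was called, where 29% of all genes tested were. At 7 days against SB 25% of them were called, where 54.5% of all genes were, and between the times 25%, where 33.2% were. WASF3, the least abundant of the 3 WAVE genes, had 135 and 164 in SB, 196 and 185 at 3 days and 260 and 284 at 7 days. The 3 groups did not overlap. At 3 days its change of 0.35 ± 0.16 did not pass the test (adjusted p = 0.13), and at 7 days it rose by 0.86 ± 0.16 against SB (adjusted p = 0.000878). The step from 3 to 7 days, 0.51 (adjusted p = 0.033), lost the call on leaving out any 1 of the 4 TGFβ libraries. WASF2 held 72.2% of the WAVE level per kilobase in SB and 71.7% at 7 days, and WASF3 1.86% and 2.97%. WASL (N-WASP) had 2313 to 2687, WASF1 1301 to 1509 and WASF2 6264 to 7239 over the 6 libraries. Cortactin (CTTN), which stabilizes branches, had 9547 to 11920 and passed no test.

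The cofilin kinases and phosphatases moved more than cofilin itself. At 3 days LIMK1 rose and LIMK2, SSH1 and SSH3 fell, and at 7 days LIMK1, SSH1 and SSH2 rose and LIMK2 fell. At each time 80% of these 5 genes were called, where 29% (3 days) and 54.5% (7 days) of all genes tested were. LIMK1 had 2762 and 3004 in SB, 4144 and 5512 at 3 days and 6743 and 5762 at 7 days. LIMK2 had 636 and 651, 480 and 466, and 410 and 404. The 2 LIM kinases, which phosphorylate and so switch off cofilin, went in opposite directions with no overlap between groups. LIMK1 rose by 0.73 ± 0.13 at 3 days (adjusted p = 0.00114) and by 1.11 ± 0.13 at 7 days (adjusted p = 2.07e-05), and LIMK2 was at -0.44 ± 0.12 (adjusted p = 0.0144) and -0.66 ± 0.12 (adjusted p = 0.000543). The 3-day call of LIMK2 was lost without either 3-day library (-0.47 and -0.42). The step of LIMK1 from 3 to 7 days, 0.38 (adjusted p = 0.0385), was lost without 3-day replicate 1 (0.18) and without either 7-day library (0.27 and 0.50). With the GC and length correction the step of LIMK2 between the times was called lower (-0.33, adjusted p = 0.0197). LIMK2 held 20.3% ± 0.69 of the LIM kinase level per kilobase in SB, 10.2% ± 2.03 at 3 days and 6.95% ± 0.65 at 7 days.

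Slingshot phosphatases return cofilin to its active form, and each had a time course of their own. SSH1 had 5409 and 5776 in SB, 4805 and 4677 at 3 days and 7402 and 7057 at 7 days. It was lowest at 3 days and highest at 7 days, with no overlap. The change at 3 days was -0.24 ± 0.08 (adjusted p = 0.0466), at 7 days 0.37 ± 0.08 (adjusted p = 0.00228) and between the times 0.61 ± 0.08 (adjusted p = 0.000295). The 3-day call was lost without SB replicate 2 (-0.19) and on leaving out any 1 TGFβ library. With the GC and length correction SSH1 stood at -0.42 at 3 days and at -0.08 at 7 days against SB, the latter not past the test (adjusted p = 0.427), so its direction at 7 days depended on that step, while the rise between the times held at 0.34 (adjusted p = 0.00867).

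SSH2 had 877 and 1025 in SB, 1028 and 1104 at 3 days and 1432 and 1451 at 7 days. Its 7-day libraries stood above all others. It rose at 7 days by 0.60 ± 0.11 against SB (adjusted p = 0.000622) and by 0.44 against 3 days (adjusted p = 0.0106), and these were 0.29 and 0.25 with the GC and length correction, both still called. The second of these calls was lost without 3-day replicate 1 (0.38) and without either 7-day library (0.45 and 0.43). SSH3 had 394 and 591 in SB, 261 and 330 at 3 days and 417 and 322 at 7 days. Its libraries were spread within each group. It fell at 3 days by 0.72 on the log2 scale (SE 0.20, adjusted p = 0.0206), which did not hold without SB replicate 2 (-0.42) and without 3-day replicate 1 (-0.55), and at 7 days the estimate was -0.40 (adjusted p = 0.119). That estimate ranged from -0.69 to -0.10 without single libraries, and it was called without SB replicate 1 (adjusted p = 0.0201) and with the GC and length correction (-0.49, adjusted p = 0.0145).

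Of the 3 genes of the cofilin family, none was called at 3 days, where 29% of all genes tested were called. Gelsolin, the actin depolymerizing protein at the centre of the study, lies outside the 45 genes and is not covered here. CFL1, the main cofilin of non-muscle cells, had 41533 and 33430 in SB, 39658 and 40870 at 3 days and 32571 and 31430 at 7 days. It fell between 3 and 7 days by 0.33 on the log2 scale (adjusted p = 0.0237). This did not hold on leaving out any 1 of the 4 TGFβ libraries, and against SB its 7-day estimate was -0.22 (adjusted p = 0.0797). CFL2, the muscle cofilin, had 14257 and 11075, 11994 and 10642, and 9329 and 10121. It was lower at 7 days than in SB by -0.37 (adjusted p = 0.0164), or -0.19 and not called without SB replicate 1, and -0.31 and not called without 7-day replicate 1. DSTN, also called ADF, had 11752 to 14489 and passed no test. The share of each of the 3 in their summed level per kilobase moved by less than 3 percentage points between group means, with CFL1 at 50.5% in SB, 53.1% at 3 days and 50.3% at 7 days. GENCODE lists 8 pseudogenes named after CFL1, 5 after DSTN and 11 after PFN1. The study counted only reads that mapped uniquely, so reads mapping equally well to such copies were left out.

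All 3 monomer binding genes were called at 7 days against SB, where 54.5% of all genes tested were called. At 3 days none passed the test, where 29% of all genes did. PFN1, the main profilin, had 26936 and 21492 in SB, 23899 and 24804 at 3 days and 16677 and 15722 at 7 days, whereas PFN2 had 10486 and 9035, 11797 and 11040, and 13555 and 14414. The 7-day libraries were the lowest for PFN1 and the highest for PFN2. PFN1 was at 0.02 at 3 days (adjusted p = 0.92), an estimate whose sign changed with equal library totals and without single libraries, and at -0.57 ± 0.10 at 7 days (adjusted p = 0.000555). PFN2 was at 0.23 (adjusted p = 0.0793) and 0.52 ± 0.09 (adjusted p = 0.000464). The 3-day estimate of PFN2 ranged from 0.12 to 0.34 without single libraries and was called without SB replicate 1 (adjusted p = 0.0184) and with the GC and length correction (0.24, adjusted p = 0.0139). Between 3 and 7 days PFN1 was at -0.59 (adjusted p = 0.00145) and PFN2 at 0.29 (adjusted p = 0.028), the latter lost on leaving out any 1 of the 4 TGFβ libraries. Per kilobase, PFN2 held 15.2% ± 0.70 of the pair in SB, 17.2% ± 1.04 at 3 days and 27.7% ± 1.70 at 7 days.

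TMSB10, a thymosin that sequesters monomers, had the highest level per kilobase of the 45 genes in every library. It had 88611 and 80446 in SB, 97309 and 102476 at 3 days and 118456 and 109135 at 7 days, and the groups did not overlap. It rose at 7 days by 0.43 ± 0.09 (adjusted p = 0.00125), or 0.69 with the GC and length correction, and its 3-day estimate of 0.24 missed the threshold (adjusted p = 0.054). Its relative TMSB4X, outside the 45 genes and named after its values were seen, had 19054 and 19650, 29962 and 28589, and 32974 and 33155, and rose by 0.60 at 3 days (adjusted p = 9.7e-05) and by 0.77 at 7 days (adjusted p = 5e-06).

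**Figure D3:**
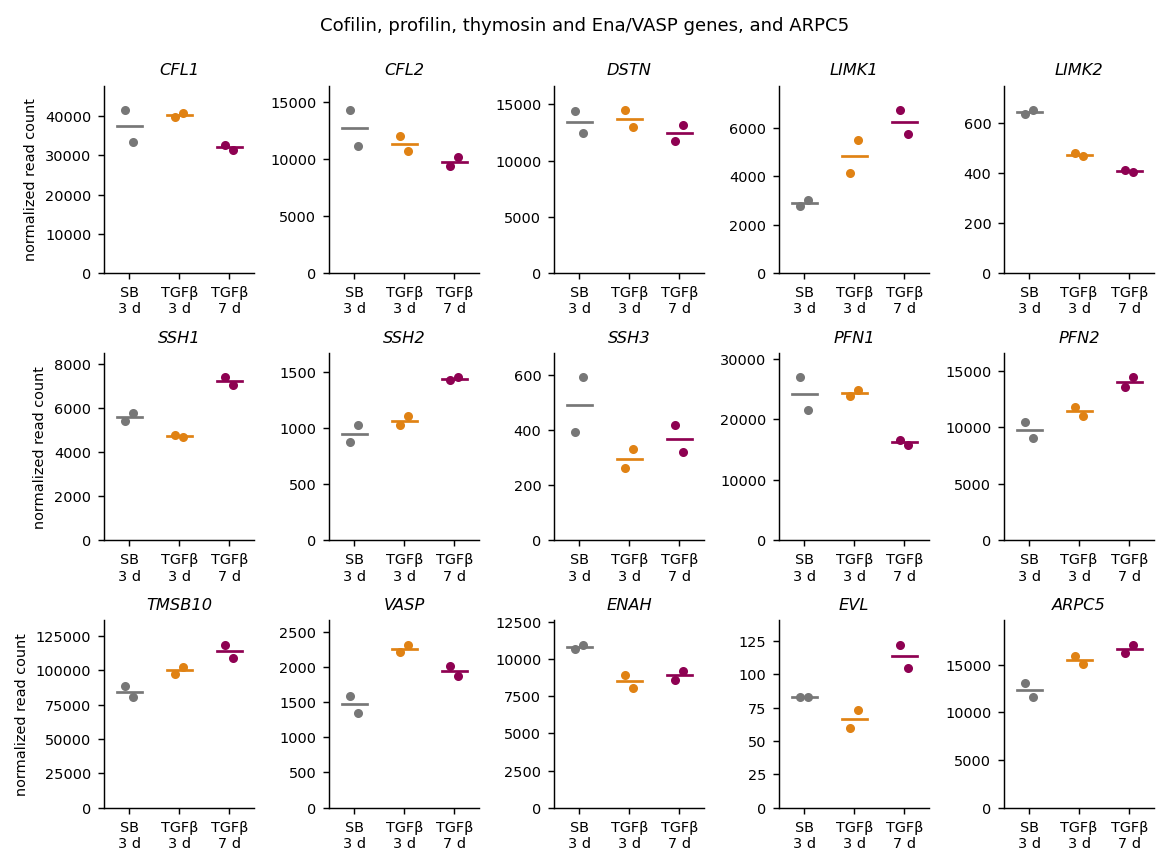
Normalized read counts (y axis, from 0 on a scale of its own for each gene) of the cofilin, profilin, thymosin and Ena/VASP genes and of ARPC5 in the 6 libraries; points are libraries, bars the mean of the 2 libraries of a group. LIMK1 and PFN2 are highest and LIMK2 and PFN1 lowest at 7 days, and SSH1 is lowest at 3 and highest at 7 days.

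Of the Ena/VASP proteins, which keep barbed ends growing, VASP rose and ENAH (Mena) fell. VASP had 1590 and 1350 in SB, 2205 and 2311 at 3 days and 2012 and 1863 at 7 days. ENAH had 10698 and 10953, 8938 and 8061, and 8588 and 9224. Neither gene's TGFβ libraries overlapped with SB. VASP rose by 0.62 ± 0.10 at 3 days (adjusted p = 0.000835) and by 0.40 ± 0.10 at 7 days (adjusted p = 0.0064), the latter lost without 7-day replicate 1 (0.35). Between the times VASP was at -0.22 (adjusted p = 0.124), or -0.32 and called with the GC and length correction (adjusted p = 0.0399). ENAH was at -0.35 ± 0.08 (adjusted p = 0.00844) and -0.28 ± 0.08 (adjusted p = 0.0136), or -0.62 at 7 days with the GC and length correction. The first call was lost without 3-day replicate 2 (-0.28) and the second without 7-day replicate 1 (-0.23). Per kilobase, VASP held 36.5% ± 3.06 of the family in SB, 53% ± 2.59 at 3 days and 47.8% ± 2.55 at 7 days. EVL, the least abundant, had 83 and 83, 60 and 73, and 122 and 105, and rose by 0.77 ± 0.21 between 3 and 7 days (adjusted p = 0.0158), a call lost without 3-day replicate 1 (0.63) and without either 7-day library (0.66 and 0.87).

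Capping protein is a pair of an alpha and a beta subunit that sits on barbed ends. CAPZB, the beta subunit, had 6258 and 5903 in SB, 7640 and 7526 at 3 days and 8044 and 7713 at 7 days. All TGFβ libraries were above SB, and CAPZB rose by 0.32 ± 0.08 (adjusted p = 0.0102) and 0.37 ± 0.08 (adjusted p = 0.0018, or 0.23 with the GC and length correction). The 3-day call was lost without 3-day replicate 1 (0.31). The alpha subunits CAPZA1, at 10860 to 12961, and CAPZA2, at 4152 to 5187, passed no test.

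**Figure D4:**
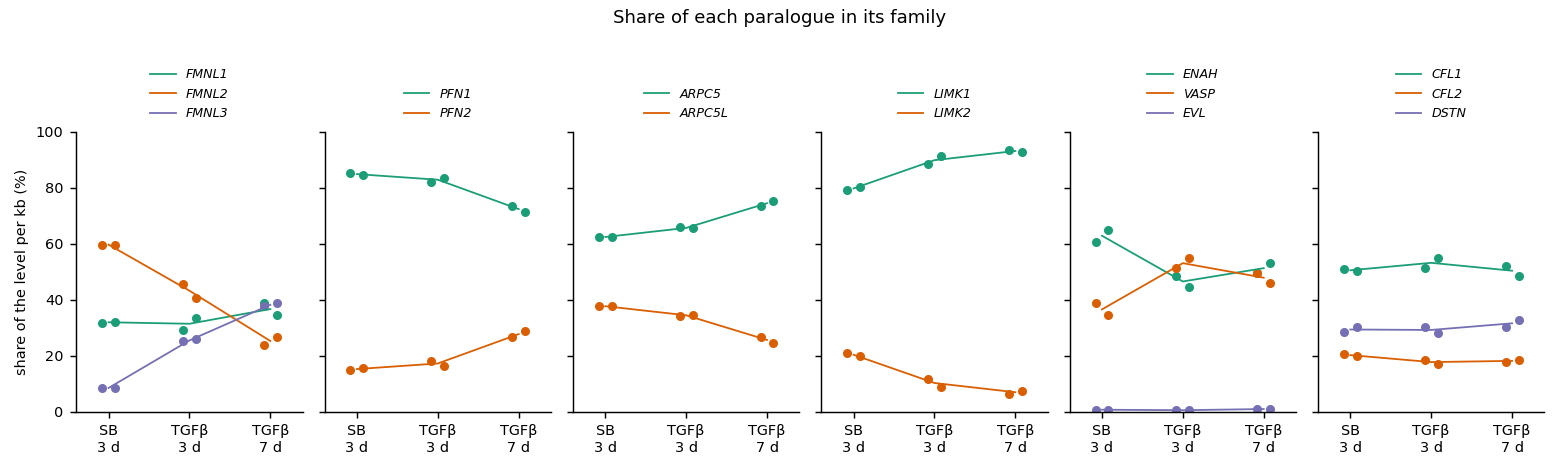
Share of each paralogue in the summed level per kilobase of exon of its family (y axis, percent) in SB at 3 days and TGFβ at 3 and 7 days (x axis); points are libraries and lines join the group means. FMNL2 fell from 59.6% to 25.2% of the FMNL family while FMNL3 went from 8.47% to 38.2%, and the cofilin family kept its makeup within 3 percentage points.

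Among 69 further tested actin regulators in 7 lists, 28 were called at 3 days against SB (40.6%, where 29% of all genes were called), with 22 higher and 6 lower. At 7 days 38 were called (55.1%, against 54.5%), with 24 higher and 14 lower, and between 3 and 7 days 19 were called (27.5%, against 33.2%), with 8 higher and 11 lower. Their median log2 fold change was 0.09 at 3 days and 0.17 at 7 days against SB. Of 9 Arp2/3 inhibitors and debranching factors, 3 rose and 2 fell at 3 days and 2 rose and 2 fell at 7 days. Of 13 turnover factors, 7 rose and none fell at 3 days, and 5 rose and 1 fell at 7 days. Of 12 partners of the WAVE and WASP complexes, 3 rose and 2 fell and then 5 rose and 3 fell. Of 5 kinases upstream of the LIM kinases, 2 rose at 3 days, and 2 rose and 3 fell at 7 days. Of 9 GTPases that switch the nucleators, 4 rose and 1 fell at 3 days and 2 rose and 1 fell at 7 days. Of 8 other nucleation promoting factors, 2 rose at 3 days and 4 at 7 days. Of 13 genes of end capping and its regulators, 1 rose and 1 fell at 3 days and 4 rose and 4 fell at 7 days.

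Coronins bind filaments and act on Arp2/3 branches, and 3 of the 6 listed had log2 fold changes over 1 in size against SB at both times. Of all genes tested, 8.8% were called with a change of that size at 3 days and 16.7% at 7 days. These 3 coronins were named because they reached that size. CORO2B had 38 and 36 in SB, 137 and 133 at 3 days and 183 and 161 at 7 days, and CORO2A had 161 and 147, 324 and 356, and 391 and 366. CORO1A, the coronin of blood cells, had 155 and 220, 62 and 105, and 48 and 42. CORO2A and CORO2B were higher and CORO1A lower in every TGFβ library than in SB. At 3 days CORO1A stood at -1.18, or -0.93 without SB replicate 2 and -0.81 without 3-day replicate 1. Its 3-day call was lost with no filter on low values. Day 7 log2 fold changes stood at 2.18 for CORO2B (adjusted p = 2e-06), 1.29 for CORO2A (adjusted p = 1.7e-05) and -2.02 for CORO1A (adjusted p = 7.2e-05). The other 3 coronins were outside the rule for named genes. CORO1C, by far the most abundant, had 22830 and 19308 in SB, 24354 and 22346 at 3 days and 15635 and 15524 at 7 days, and was lower at 7 days by -0.43 against SB (adjusted p = 0.002), while CORO1B, at 1061 to 1703, and CORO7, at 22 to 44, passed no test. RLTPR (CARMIL2), which binds capping protein, had 228 and 295 in SB, 135 and 154 at 3 days and 86 and 77 at 7 days, and was lower by -1.66 at 7 days (adjusted p = 2e-05). MICAL2, which oxidizes actin filaments so that they fall apart, was named after its values were seen. It had 4613 and 4142, 6739 and 6823, and 4025 and 3761, rose by 0.63 at 3 days (adjusted p = 0.000189) and fell by 0.80 on the log2 scale between 3 and 7 days (adjusted p = 7.7e-05).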

How the data were processed

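RNA of 6 H2087-LCC libraries was measured in 3 groups of 2, and groups were taken from the treatment labels. The authors mapped reads to hg19 with STAR, assigned them to genes with HTSeq 0.6.1p1 and normalized them with DESeq2. The deposited score is a library-size normalized count rounded to whole numbers; exact read counts could not be recovered from the rounded table, so the count test of the study's methods was not used. All 6 libraries were fitted together with limma 3.58.1 (R 4.3.3, trend, 3 residual degrees of freedom) on log2(value + 1), which understates the change of low genes, over 14395 genes with a mean of at least 10. Benjamini-Hochberg adjusted p-values run over these genes, at 0.05, 2-sided. With 2 against 2 libraries the smallest exact permutation p is 0.333. The fit was tested on simulated data drawn with the same built-in variation for every gene and no GC effect. That test does not cover the GC differences between the real libraries.

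Levels per kilobase used union exon lengths of GENCODE v44 on GRCh37, matched by symbol for 45 of 45 genes, and depend on that length. Values by the longest transcript are given only for the FMNL family. Upstream windows are from RefSeq. Genes and lists were chosen with earlier results of these data known. Those described in full passed the threshold with an absolute log2 fold change of at least 0.5 in a comparison (for other actin genes, at least 1 with a mean of at least 100), and smaller called changes are given in short. Alternatives covered the pseudocount, filter, scaling, trend, samples fitted, replicate number and single libraries, and, added after seeing the data, GC content and length. For members, the gene paragraphs list calls lost without single libraries or with the GC and length correction. Calls lost with another filter, trend, scaling or choice of samples are counted below and mostly not listed by gene. Intervals for the depth of single values were not computed, since read counts were not used.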

Additional observations from a re-analysis of the deposited data

Results flagged for a closer look

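SSH1, which encodes a Slingshot phosphatase of cofilin, was called lower than SB at 3 days of TGFβ and higher than SB at 7 days, and was picked out because its calls at the 2 times had opposite signs. The difference between the times was 0.608 on the log2 scale (7 days minus 3 days), with both 7-day libraries (7402 and 7057) above both 3-day libraries (4805 and 4677). It comes from the same libraries and shared SB controls that picked the gene out, so it is given as a description and not as further support. The 3-day call was lost in 11 of 17 alternatives. With the GC and length correction the value against SB at 7 days was -0.08, and the difference between the times was 0.34.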

How the results depend on the processing

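Of 66 single-gene calls, 37 kept their sign and call in each of up to 17 alternatives, 28 lost the call in at least 1 and 1 reversed. The reversal was SSH1 at 7 days against SB, at -0.0753 with the GC content and length correction. The 66 hold the calls of the 43 members and those of CORO1A, CORO2A, CORO2B and RLTPR. These last genes were chosen for called changes of at least 1, so they are not a fair sample of how well calls hold. RLTPR had 16 alternatives, without the GC and length correction. Uncalled estimates also changed sign. PFN1 at 3 days against SB went to -0.0386 with equal library totals, -0.146 without SB replicate 2 and -0.00972 without 3-day replicate 2, and ranged from -0.146 to 0.18 over the single libraries left out. ARPC1B between 3 and 7 days went to -0.0354 with the GC and length correction, and to -0.132 and -0.0918 without replicate 1 of the 3-day and 7-day group, with 0.219 as the highest value without a library. Against SB at 3 days the 15 calls among the 43 members became 9 with no filter on low values (7 higher, 2 lower), 7 with no trend (6 higher, 1 lower) and 24 with the GC and length correction (9 lower), and they ranged from 8 to 18 without single libraries (7 to 14 higher, 1 to 4 lower). The 28 other actin genes called became 14 with no filter, 14 with no trend and 14 to 25 without single libraries. At 7 days against SB the 25 calls ranged from 22 to 25 without single libraries and the 38 of the other actin genes from 23 to 37. Between 3 and 7 days the 16 calls became 10 with no filter (4 higher) and 6 to 18 without single libraries (2 to 9 higher, 4 to 9 lower). There, 5 were higher with no trend and 13 lower with the GC and length correction. The 19 other actin genes called became 12 with no filter, 12 with no trend, 29 with the GC and length correction and 7 to 23 without single libraries. Where leaving out a library left a group with 1 library, it was assumed to vary like the others. The share of all genes called in each alternative is not given. Such settings act on every gene tested, so these counts are not a result about the actin genes. The cause of the changes was not tested. Samples shared only a replicate number: the replicate differences of SB correlated with those at 3 days at 0.14 and at 7 days at -0.10, and those of the TGFβ groups at -0.29. With the replicate number as a block, 14, 25 and 15 members were called in the 3 comparisons in place of 15, 25 and 16. The 2 libraries per group limit the precision, and a missed threshold does not show that values were alike.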
